A study of Mus musculus with 22 samples.

Results

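The enzymes and transporters that burn fatty acids and the carbon chains of branched amino acids were followed in mouse hearts that differed in thyroid hormone supply and in thyroid hormone receptor α1 (TRα1). The group was given as a list of 42 genes by symbol, and 40 of them were measured among 21092 tested gene probe sets, each by a single probe set with a mean log2 intensity above 4. Acsl1 and Etfb, named by no probe set of their own, were not analysed here. Whole hearts of male C57/BL6NCr mice, 3 to 6 months old, housed singly at 30 °C in a 12 h light and dark cycle, were measured on Clariom S Mouse arrays, each array taken as a different mouse. There were 5 TRα1+m mice given T3, 5 TRα1+m mice on control water, 6 wild-type mice given T3 and 6 wild-type mice on control water. T3, the active thyroid hormone, was taken with the drinking water for 12 days, at a dose of 0.5 mg/L beside 0.01% bovine serum albumin, and control mice drank water with albumin only. TRα1+m mice are heterozygous for a point mutation that lowers the affinity of TRα1 for T3, and they carry it in every tissue, so that effects inside the heart and effects that reach it from elsewhere cannot be told apart. The hormone level reached under treatment was not part of the arrays, and genotype and hormone level cannot be told apart between the treated groups.

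The heart draws most of its energy from fatty acids. Long acyl chains are linked to carnitine, carried across the inner mitochondrial membrane and freed again as acyl-CoA, and malonyl-CoA holds this entry step back. Inside the matrix the chain is shortened in repeated rounds by a dehydrogenase, a hydratase, a second dehydrogenase and a thiolase, with electrons passed on through the electron transfer flavoprotein. Unsaturated chains need extra isomerases and a reductase, very long chains are first cut in peroxisomes, and thioesterases release acyl groups from CoA. Leucine, isoleucine and valine enter after loss of their amino group and pass through related acyl-CoA dehydrogenases. T3 acts through nuclear receptors, TRα1 being the main form in heart muscle.

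Levels are log2 intensities after the 22 arrays were quantile-normalized together. Differences are on the log2 scale, each with its standard error from a limma model fitted to every tested probe set. A gene was called at a Benjamini-Hochberg adjusted p below 0.05 over the 21092 probe sets. An intensity cannot be compared between genes, because probes differ in brightness. The members were bright: 19 of the 40 had a mean above 14, against 776 of the 21092 tested probe sets. No member reached the upper limit of the scale, and Hadha came closest with a highest group mean of 17.98. The group means of all members lay above the median of the negative-control probe sets in all 4 groups, Pecr, Acad10 and, in T3-treated wild type, Acot1 by the smallest margins.

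Array 1 of the T3-treated TRα1+m group stood apart. It had the lowest value of its group in 27 of the 40 members, while it was lowest in 23.2% of all tested probe sets. Counts of calls over all 40 members that rest on this group are therefore also given without it, by comparison. Counts for parts of the members, for other genes, for overlap and for markers include it. The probe set of Thra, the gene of TRα1, averaged 11.08 ± 0.18 in T3-treated TRα1+m, 12.19 ± 0.13 in TRα1+m on water, 9.89 ± 0.12 in T3-treated wild type and 10.80 ± 0.33 in wild type on water (SD). Which alleles and transcript forms this probe set reads was not tested, and its level does not show the mutation. The 8 cardiomyocyte markers, among them Myh6, Tnnt2 and Ttn, were all present. The label of whole heart also covers fibroblasts, vessel cells and macrophages, and their markers were detected, whereas 1 of 5 adipocyte markers was above the median of the negative controls in all groups.

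In wild-type hearts a large share of the fatty acid oxidation genes fell after T3. Of the 40 members, 19 fell and 0 rose after T3 in wild type, where 12.7% of all tested probe sets were called, 6.74% higher and 5.96% lower. The median difference over the 40 members was -0.30, against 0.01 over all tested probe sets. The T3 and water arrays did not overlap, with T3 lower, for 20 members, and with T3 higher for 0, against 3.68% and 4.07% of all probe sets. Bright probe sets were called more often in general: above a mean of 14, 12 of 19 members fell, while 16.0% of all probe sets at that level did.

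In TRα1+m hearts 11 members fell and 1 rose after T3, and 16.5% of all tested probe sets were called, with 6.99% of all lower and 9.46% higher. The median over the members was -0.21, against 0.00 over all probe sets. The T3 arrays lay wholly below the water arrays for 11 members and wholly above for 1, which 5.7% and 7.37% of all probe sets showed. Above a mean of 14, 6 of 19 members fell, while 15.3% of all probe sets at that level did. The 11 members that fell were all among the 19 that fell in wild type, which makes 100% of the falls in TRα1+m and 57.9% of those in wild type. Another 8 members fell in wild type and were not called in TRα1+m: Slc25a20, Crat, Hadhb, Decr1, Acot2, Acot13, Ivd and Acad10. Without array 1 of the T3-treated TRα1+m group 1 member rose and 9 fell. The plot of T3 effects by role shows both genotypes side by side.

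**Figure D1:**
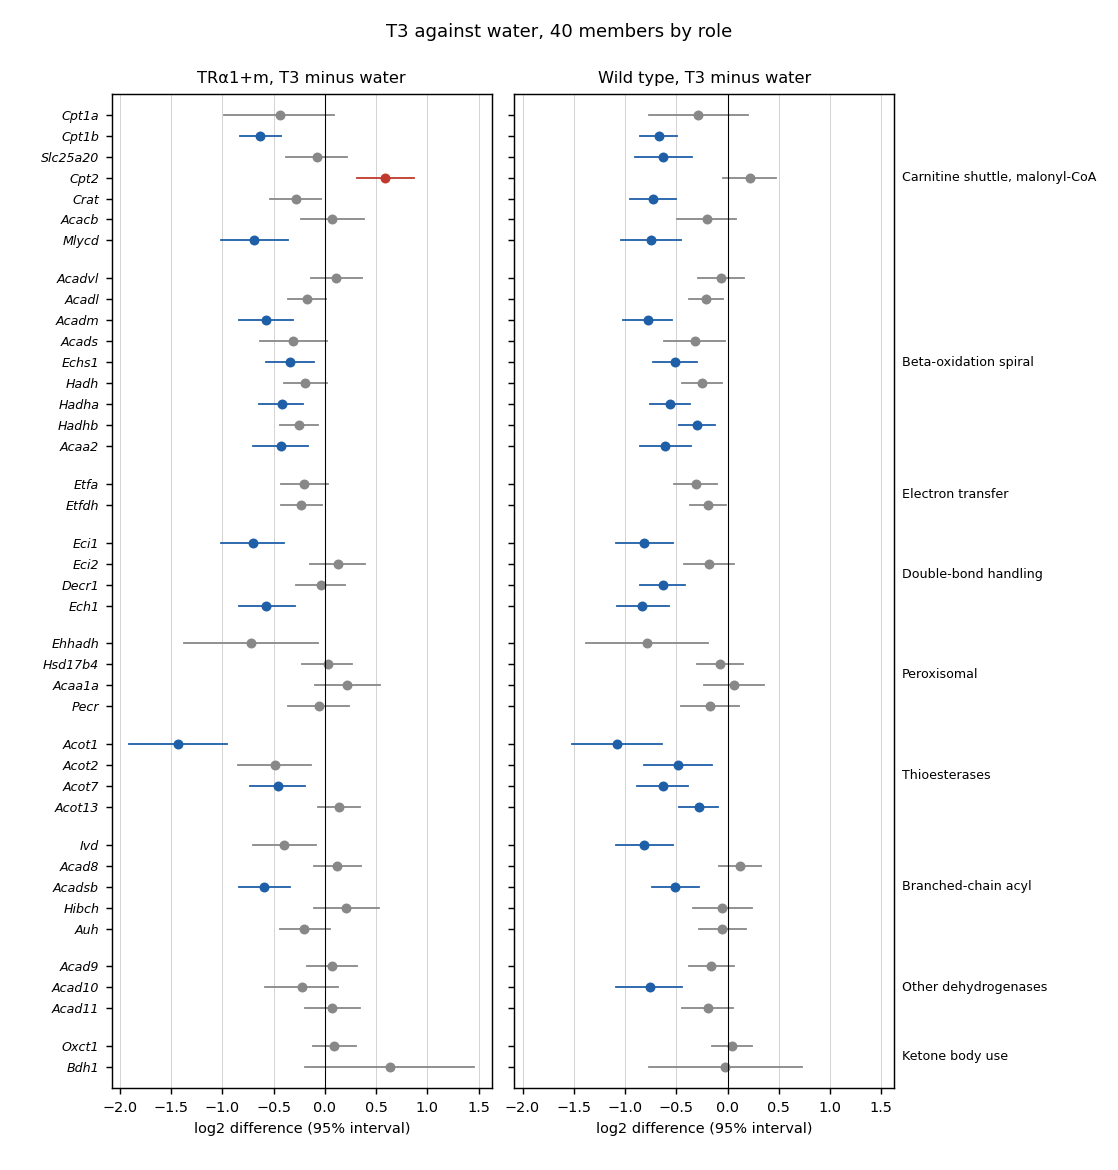
The log2 difference of T3 minus water is plotted for each of the 40 members, with TRα1+m hearts on the left and wild-type hearts on the right. Points are the fitted differences and bars their 95% intervals, blue for members that fell, red for the one that rose and grey for members not called. In wild type 19 members are blue and none is red, and in TRα1+m 11 are blue and Cpt2 is red.

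Many markers of fibroblasts, vessel cells and macrophages rose, while 0 of 5 adipocyte markers and 0 of 1 erythroid marker measured were called after T3 in either genotype. Among fibroblast markers 4 of 7 rose after T3 in TRα1+m and 6 of 7 in wild type, and among endothelial markers 5 of 8 and 6 of 8. Among macrophage markers 7 of 7 and 6 of 7 rose, and among smooth muscle and pericyte markers 3 of 6 in both. Of that last list Myh11 (8.16 with T3, 8.78 on water), Tagln (10.39, 10.57) and Cnn1 (7.35, 7.78) had lower means with T3 in wild type. Myh11 did so in TRα1+m (7.85, 8.24), and 0 were called lower. The sums that follow are led by the brightest markers of each list, Rgs5 and Acta2 for smooth muscle and pericytes. The summed macrophage level on the log2 scale spanned 14.68 to 15.16 with T3 and 12.57 to 13.11 on water in TRα1+m, and 14.92 to 15.08 with T3 and 13.49 to 14.20 on water in wild type. Summed fibroblast markers spanned 17.83 to 18 with T3 and 17.51 to 17.85 on water in TRα1+m, and 17.88 to 18.12 with T3 and 17.39 to 17.85 on water in wild type. Summed endothelial markers spanned 16.35 to 16.67 with T3 and 15.95 to 16.09 on water in TRα1+m, and 16.41 to 16.64 with T3 and 15.73 to 16.24 on water in wild type. Summed smooth muscle and pericyte markers spanned 16.45 to 16.90 with T3 and 15.58 to 16.04 on water in TRα1+m, and 16.47 to 16.79 with T3 and 15.31 to 16.01 on water in wild type, so that macrophage, endothelial and smooth muscle lists had no overlap between T3 and water in either genotype, and the fibroblast list overlapped in TRα1+m. Summed cardiomyocyte markers overlapped between T3 and water. They spanned 21.58 to 21.67 with T3 and 21.63 to 21.75 on water in TRα1+m. In wild type they spanned 21.54 to 21.69 with T3 and 21.60 to 21.77 on water. The median difference over these markers after T3 was -0.161 in TRα1+m and -0.115 in wild type. This sum is led by markers near the upper limit of the scale. Among them were Tnnt2 (19.44) and Pln (19.3) in TRα1+m on water and Myl2 (19.34) in wild type on water. Whether a fall would show in full at that level was not tested. Of the 8 cardiomyocyte markers 0 were called in TRα1+m, and 1 fell in wild type. The part of this shift in the falls below was not tested, and in bulk tissue fewer cells of a type and less RNA per cell cannot be told apart.

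Of the 7 members for entry into mitochondria, 2 fell and 1 rose after T3 in TRα1+m, and 4 fell in wild type. Cpt1b, the heart and muscle form of carnitine palmitoyltransferase 1, had 15.37, 15.51, 15.50, 15.63 and 15.48 in T3-treated TRα1+m, against 16.23, 16.21, 16.09, 16.12 and 15.98 in TRα1+m on water. In wild type it ran from 14.97 to 15.26 with T3 (median 15.12) and from 15.67 to 15.98 on water (median 15.76). The ranges did not overlap in either genotype, and the log2 difference was -0.63 ± 0.10 in TRα1+m (limma, adjusted p = 3e-05) and -0.67 ± 0.09 in wild type (adjusted p = 6.8e-06), or 1.55-fold and 1.59-fold lower. The liver form Cpt1a varied far more between animals, with an SD of 0.25 with T3 and 0.70 on water in TRα1+m, and of 0.19 with T3 and 0.48 on water in wild type. Its differences of -0.44 in TRα1+m (95% interval -0.98 to 0.09) and -0.29 in wild type (-0.77 to 0.20) were not called.

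Slc25a20, the carrier that exchanges acylcarnitine for carnitine across the inner membrane, was called in wild type alone. Its values were 14.36, 14.89, 14.91, 15.10 and 14.93 in T3-treated TRα1+m, against 15.27, 14.72, 14.97, 15.03 and 14.58 in TRα1+m on water. They ran from 13.72 to 13.96 in T3-treated wild type (median 13.87), against 14.11 to 14.79 in wild type on water (median 14.47). The ranges overlapped in TRα1+m, where the difference was -0.08 (95% interval -0.38 to 0.22), and not in wild type, where it was -0.63 ± 0.13 (adjusted p = 0.0018).

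Crat, which buffers acetyl groups onto carnitine, had a difference of -0.28 in TRα1+m (adjusted p = 0.12) and of -0.73 ± 0.11 in wild type (adjusted p = 4e-05). Cpt2, which hands the acyl chain back to CoA inside the matrix, was the only member called upwards by T3. It had 12.42, 12.38, 12.34, 12.77 and 12.81 in T3-treated TRα1+m, against 12.19, 11.63, 11.83, 12.29 and 11.83 in TRα1+m on water, with no overlap. The rise was 0.59 ± 0.13, or 1.5-fold (adjusted p = 0.0028). In wild type Cpt2 ran from 12.50 to 12.77 with T3 and from 12.09 to 12.61 on water, a difference of 0.22 (adjusted p = 0.31).

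Enzymes that make and remove malonyl-CoA differed in their calls. Mlycd, which degrades malonyl-CoA and thereby frees the carnitine step, had 9.14, 9.80, 9.72, 9.70 and 9.72 in T3-treated TRα1+m, against 10.64, 10.15, 9.95, 10.78 and 9.98 in TRα1+m on water. It ran from 9.10 to 9.30 in T3-treated wild type (median 9.20) and from 9.77 to 10.24 in wild type on water (median 9.88). The ranges were separate in both genotypes, and Mlycd fell by 0.69 ± 0.16 in TRα1+m (adjusted p = 0.0027) and by 0.75 ± 0.14 in wild type (adjusted p = 0.00065). Acacb, the mitochondria-bound carboxylase that makes malonyl-CoA, was not called after T3, with differences of 0.07 in TRα1+m and -0.20 in wild type.

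Within the β-oxidation spiral, 4 of 9 members fell in TRα1+m and 5 of 9 in wild type. Acadm, the medium-chain acyl-CoA dehydrogenase, had 13.92, 14.45, 14.30, 14.64 and 14.44 in T3-treated TRα1+m, against 15.04, 14.79, 14.83, 15.09 and 14.87 in TRα1+m on water. It ran from 13.21 to 13.49 in T3-treated wild type (median 13.40), against 13.97 to 14.45 in wild type on water (median 14.07). Every T3 array lay below every water array of its genotype, and Acadm fell by 0.57 ± 0.13 in TRα1+m (adjusted p = 0.0021) and by 0.78 ± 0.12 in wild type (adjusted p = 4e-05).

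Hadha, the α subunit of the trifunctional protein that carries the last 3 reactions on long chains, had 17.34, 17.68, 17.52, 17.61 and 17.63 in T3-treated TRα1+m, against 18.02, 17.79, 17.99, 18.28 and 17.82 in TRα1+m on water. In wild type it ran from 17.03 to 17.17 with T3 and from 17.50 to 17.80 on water. It fell by 0.42 ± 0.10 in TRα1+m (adjusted p = 0.005) and by 0.56 ± 0.09 in wild type (adjusted p = 0.00017). Its partner Hadhb, the β subunit with the thiolase activity, fell by 0.30 ± 0.08 in wild type (adjusted p = 0.018) and had a difference of -0.25 in TRα1+m (adjusted p = 0.06). On the deposited values Hadhb was called in both genotypes, with -0.37 in TRα1+m (adjusted p = 0.0056) and -0.38 in wild type (adjusted p = 0.0024).

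The crotonase Echs1 and the thiolase Acaa2, which handle shorter chains, fell in both genotypes. Echs1 fell by 0.34 ± 0.11 in TRα1+m (adjusted p = 0.039) and by 0.51 ± 0.10 in wild type (adjusted p = 0.00099). Acaa2 fell by 0.43 ± 0.13 in TRα1+m (adjusted p = 0.023) and by 0.61 ± 0.12 in wild type (adjusted p = 0.00089). Without array 1 of the T3-treated TRα1+m group neither was called in TRα1+m, at -0.26 (adjusted p = 0.13) for Echs1 and -0.30 (adjusted p = 0.077) for Acaa2.

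The remaining dehydrogenases of the spiral did not pass the test. Acadvl, which starts on very long chains, differed by 0.11 in TRα1+m (95% interval -0.13 to 0.36) and by -0.06 in wild type (-0.29 to 0.16). Acadl, the long-chain form, differed by -0.17 in TRα1+m (-0.36 to 0.01) and by -0.21 in wild type (-0.38 to -0.04), and in wild type it was called on the deposited values (-0.27, adjusted p = 0.036). The short-chain form Acads had -0.31 and Hadh, the second dehydrogenase of the round, had -0.19 in TRα1+m, against -0.32 and -0.25 in wild type. Among the acyl-CoA dehydrogenases of the spiral Acadm was the one called, and differences in response between these genes were not tested.

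Promoter letters of the same genes were looked up for the AGGTCA hexamer, the core that thyroid hormone receptors and the related receptors of fat metabolism read, in 300-base windows from RefSeq (GRCm38.p6), 250 bases before to 50 after the transcription start. Windows were held for 35 of the 42 genes. The hexamer, on either strand, stood in 5 of 37 member windows (13.5%) and in 16.3% of all 32851 windows. Its sites are printed because they belong to members on both sides of the T3 result, Acadm and Echs1 having fallen and Acadvl, Cpt1a and Acacb not having been called. The hexamer is in capitals, 5′ to 3′ on the strand of the gene, and reads TGACCT where it lies on the other strand.
Acadm, chr3:153944875-153944893, minus strand: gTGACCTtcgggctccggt
Echs1, chr7:140116487-140116516, minus strand: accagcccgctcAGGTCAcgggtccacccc
Acadvl, chr11:70015498-70015527, minus strand: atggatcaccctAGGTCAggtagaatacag
Cpt1a, chr19:3323195-3323224, plus strand: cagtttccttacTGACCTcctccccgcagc
Acacb, chr5:114165549-114165567, plus strand: ttttctcctgccTGACCTt
Counted from the start, the hexamer begins at base -249 in Acadm, -83 in Echs1, -87 in Acadvl, -94 in Cpt1a and 43 in Acacb. A tandem repeat of the same hexamer with any 4 bases or any 1 base between the copies was found in 0 of 37 member windows, against 0.0152% and 0.0396% of all windows. The longer element TCAAGGTCA, which contains the hexamer, was found in 0 member windows and in 0.423% of all windows. Such matches describe letters in these windows and not bound sites.

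Electrons leave the spiral through the electron transfer flavoprotein and its membrane dehydrogenase. Etfa, the α subunit, differed by -0.20 in TRα1+m and by -0.31 ± 0.10 in wild type (adjusted p = 0.05, just outside the threshold), and in wild type the ranges of 16.16 to 16.27 with T3 and 16.43 to 16.69 on water did not overlap. On the deposited values Etfa was called in wild type (-0.31, adjusted p = 0.046). Etfdh, the dehydrogenase, had -0.23 in TRα1+m and -0.19 in wild type and was not called.

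Enzymes for unsaturated chains held some of the largest falls. Eci1, the mitochondrial isomerase that moves a double bond into place, had 11.69, 12.57, 12.45, 12.67 and 12.54 in T3-treated TRα1+m, against 13.28, 12.82, 13.24, 13.18 and 12.91 in TRα1+m on water. In wild type it was tight, from 11.38 to 11.48 with T3 (median 11.44), against 12.00 to 12.46 on water (median 12.24). No T3 array reached a water array of its genotype, and Eci1 fell by 0.70 ± 0.15 in TRα1+m (adjusted p = 0.0013) and by 0.81 ± 0.13 in wild type (adjusted p = 0.00014).

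Ech1, the isomerase for conjugated double bonds, had 16.69, 17.33, 17.26, 17.32 and 17.07 in T3-treated TRα1+m, against 17.72, 17.47, 17.87, 17.75 and 17.69 in TRα1+m on water. It ran from 16.29 to 16.70 in T3-treated wild type (median 16.50), against 16.97 to 17.57 in wild type on water (median 17.32). Again no T3 array reached the water arrays of its genotype, and Ech1 fell by 0.57 ± 0.13 in TRα1+m (adjusted p = 0.0038) and by 0.83 ± 0.12 in wild type (adjusted p = 3.7e-05).

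Decr1, the reductase that removes a surplus double bond, was also called in wild type alone. It had 15.06, 15.41, 15.30, 15.59 and 15.44 in T3-treated TRα1+m, against 15.53, 15.27, 15.35, 15.66 and 15.19 in TRα1+m on water. It ran from 14.22 to 14.62 in T3-treated wild type (median 14.50), against 14.99 to 15.29 in wild type on water (median 15.10). The TRα1+m ranges overlapped almost fully (difference -0.04, 95% interval -0.28 to 0.20), while in wild type Decr1 fell by 0.63 ± 0.11 (adjusted p = 0.00016). Eci2, the second isomerase, was not called, with 0.13 in TRα1+m and -0.18 in wild type.

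**Figure D2:**
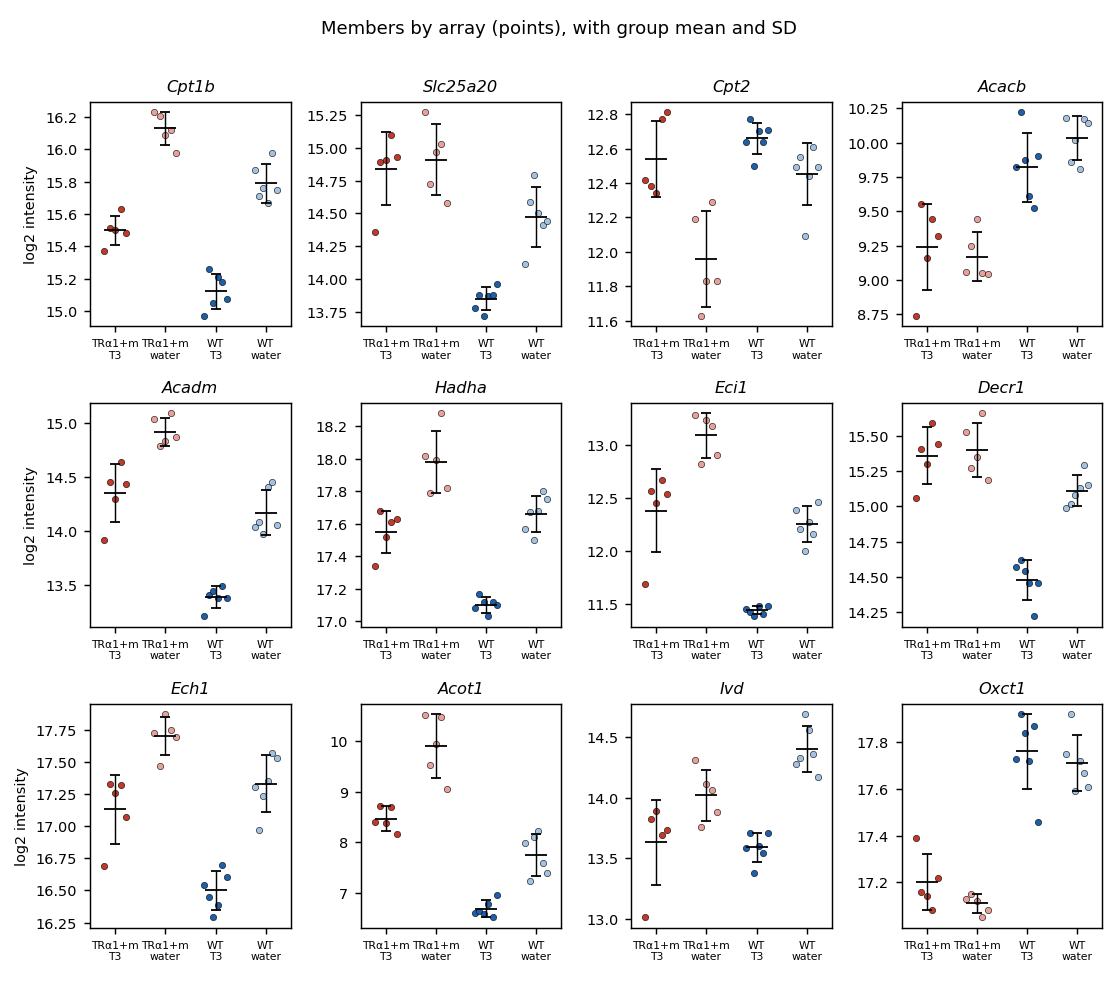
Each panel plots the log2 intensity of a member on every array (points) with the mean and SD of its group (bars), for T3-treated TRα1+m, TRα1+m on water, T3-treated wild type and wild type on water from left to right. The vertical axes differ between panels and do not start at 0. In Acadm, Eci1, Ech1, Hadha, Cpt1b and Acot1 the T3 points lie below the water points of the same genotype, while Decr1 and Slc25a20 are separated in wild type only, and Oxct1 and Acacb separate by genotype on water.

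Thioesterases release free acids from acyl-CoA. Acot1, the cytosolic form, had the largest T3 difference of all members. It had 8.40, 8.72, 8.38, 8.70 and 8.17 in T3-treated TRα1+m, against 10.52, 9.54, 9.95, 10.49 and 9.05 in TRα1+m on water. In wild type it ran from 6.51 to 6.96 with T3 (median 6.62), close to the median of the negative controls at 6.38, against 7.24 to 8.23 on water (median 7.78). No ranges overlapped within a genotype, and Acot1 fell by 1.43 ± 0.23 in TRα1+m, 2.70-fold (adjusted p = 7e-05), and by 1.08 ± 0.21 in wild type, 2.11-fold (adjusted p = 0.00089).

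Its mitochondrial paralogue Acot2 is nearly identical in sequence and lies next to it, and whether the probe sets tell them apart was not tested. Acot2 was bright in all groups, with 15.63 ± 0.15 in T3-treated TRα1+m, 16.12 ± 0.54 in TRα1+m on water, 15.63 ± 0.12 in T3-treated wild type and 16.11 ± 0.15 in wild type on water (SD). It differed by -0.49 in TRα1+m (adjusted p = 0.057) and by -0.48 ± 0.16 in wild type (adjusted p = 0.047), and the call in wild type was lost in 17 of the 22 fits that left out 1 array. Acot7, a cytosolic form for long acyl-CoA, fell by 0.46 ± 0.13 in TRα1+m (adjusted p = 0.014) and by 0.63 ± 0.12 in wild type (adjusted p = 0.00057).

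Acot13, a mitochondria-associated form, had 16.95, 16.56, 16.60, 16.52 and 16.54 in T3-treated TRα1+m, against 16.58, 16.62, 16.47, 16.49 and 16.32 in TRα1+m on water. It ran from 16.58 to 16.80 in T3-treated wild type (median 16.66), against 16.85 to 17.09 in wild type on water (median 16.97). The ranges overlapped in TRα1+m, where the difference was 0.14 (95% interval -0.07 to 0.34), and were separate in wild type, where Acot13 fell by 0.28 ± 0.09 (adjusted p = 0.042). That call was lost in 9 of the 22 fits without 1 array.

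None of the 4 peroxisomal members was called after T3 in either genotype. Ehhadh, the bifunctional enzyme of peroxisomal oxidation, had the largest differences, -0.72 in TRα1+m (95% interval -1.37 to -0.07, adjusted p = 0.14) and -0.79 in wild type (-1.38 to -0.19, adjusted p = 0.077). Its spread was wide, with 7.22, 7.79, 7.98, 8.35 and 7.78 in T3-treated TRα1+m, against 9.05, 7.99, 8.11, 9.78 and 7.78 in TRα1+m on water. It ran from 6.81 to 7.61 in T3-treated wild type, against 7.48 to 8.91 in wild type on water. Hsd17b4, the second bifunctional enzyme, differed by 0.03 in TRα1+m and -0.07 in wild type. The thiolase Acaa1a differed by 0.22 in TRα1+m and 0.06 in wild type, and the reductase Pecr by -0.06 in TRα1+m and -0.17 in wild type.

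Of the 5 members that act on branched acyl chains, 1 fell in TRα1+m and 2 in wild type. Acadsb, the dehydrogenase for the isoleucine-derived chain, had 12.23, 12.36, 12.75, 12.37 and 12.52 in T3-treated TRα1+m, against 13.08, 12.80, 13.25, 13.05 and 12.99 in TRα1+m on water. It ran from 12.02 to 12.36 in T3-treated wild type, against 12.40 to 12.89 in wild type on water. It fell by 0.59 ± 0.12 in TRα1+m (adjusted p = 0.0011) and by 0.51 ± 0.11 in wild type (adjusted p = 0.0025), with no overlap in either genotype.

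Ivd, the dehydrogenase for the leucine-derived chain, had 13.01, 13.82, 13.89, 13.69 and 13.73 in T3-treated TRα1+m, against 14.31, 13.76, 14.11, 14.06 and 13.88 in TRα1+m on water. It ran from 13.38 to 13.71 in T3-treated wild type (median 13.59), against 14.17 to 14.69 in wild type on water (median 14.35). It fell by 0.81 ± 0.13 in wild type (adjusted p = 0.00014), whereas the difference in TRα1+m of -0.40 was not called (adjusted p = 0.072) and was -0.24 without array 1 of the T3 group (adjusted p = 0.24). Acad8, the valine-side dehydrogenase, differed by 0.12 in both genotypes. Hibch, a hydrolase of the valine route, had 0.21 in TRα1+m and -0.05 in wild type, and Auh, a hydratase of the leucine route, had -0.20 in TRα1+m and -0.05 in wild type.

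Among the other acyl-CoA dehydrogenases, Acad10 fell by 0.76 ± 0.16 in wild type (adjusted p = 0.0014) and differed by -0.22 in TRα1+m (adjusted p = 0.48). It was dim, with 6.83, 7.34, 7.21, 7.18 and 7.02 in T3-treated TRα1+m, against 7.53, 7.69, 7.34, 7.39 and 6.73 in TRα1+m on water. It ran from 6.69 to 7.47 in T3-treated wild type, against 7.38 to 8.19 in wild type on water, with a slight overlap. Acad9, which also helps to assemble respiratory complex I, had 0.07 in TRα1+m and -0.16 in wild type, and Acad11 had 0.07 and -0.19.

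Ketone body genes were not called after T3. Oxct1, the transferase that lets the heart use ketone bodies, differed by 0.09 in TRα1+m (95% interval -0.12 to 0.30) and by 0.04 in wild type (-0.15 to 0.24). Bdh1, the ketone body dehydrogenase, had 12.44, 11.21, 10.81, 10.44 and 10.64 in T3-treated TRα1+m, against 11.05, 11.58, 10.22, 9.50 and 10.02 in TRα1+m on water. It ran from 10.05 to 10.99 in T3-treated wild type, against 9.99 to 11.99 in wild type on water. Its intervals were the widest of all members, -0.19 to 1.46 in TRα1+m and -0.77 to 0.73 in wild type.

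Other genes of the same pathways, 52 measured of 57 listed, moved in part with the members. After T3, 7 rose and 13 fell in TRα1+m, and 4 rose and 17 fell in wild type. Of all tested probe sets 9.46% rose and 6.99% fell in TRα1+m, and 6.74% and 5.96% in wild type. The remaining genes of branched-chain amino acid breakdown carried most of the falls, 9 of 16 in TRα1+m (median -0.51) and 11 of 16 in wild type (median -0.64), with 0 rising in either. Ppm1k, the phosphatase that switches on the branched-chain keto acid dehydrogenase, fell by 1.97 ± 0.21 in TRα1+m (adjusted p = 2.9e-07) and by 2.15 ± 0.20 in wild type (adjusted p = 4.2e-08). The acyl-CoA synthetase Acsl6 rose by 2.69 ± 0.25 in TRα1+m (adjusted p = 2.7e-08) and by 2.07 ± 0.23 in wild type (adjusted p = 6.8e-07). Abcd2, a peroxisomal fatty acid transporter, rose by 1.52 ± 0.23 in TRα1+m (adjusted p = 3.9e-05) and by 1.25 ± 0.21 in wild type (adjusted p = 2e-04).

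The T3 calls were set against other scalings of the arrays. Of the calls made after joint quantile normalization, 9 of 12 in TRα1+m and 17 of 19 in wild type were also made on the deposited values, on values centred by the gene probe sets, on values centred by the negative controls and after quantile normalization of gene probe sets alone. With the negative-control level of each array as a covariate 0 of 40 members were called in TRα1+m and 6 in wild type. Of all 21092 probe sets 243 were then called in TRα1+m and 791 in wild type, against 3470 and 2678 without the covariate. Of the variance of that covariate, 98.8% lay between the groups.

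The second question was how TRα1+m hearts differed from wild type at the same treatment. On water 10 members were higher and 8 lower in TRα1+m, where 39.6% of all tested probe sets were called, 19.2% higher and 20.4% lower. On T3 16 were higher and 2 lower, where 35.7% were called, 17.8% in each direction. The members' median difference was 0.10 on water and 0.22 on T3, against -0.01 and 0.00 over all probe sets. The share of members called in either direction was thus near that of all probe sets in both treatments, while on T3 most called members were higher. Above a mean of 14, 7 of 19 members were higher and 3 lower on water, against 26.4% and 30.0% of all probe sets at that level. On T3 10 of the 19 were higher and 1 lower, against 28.6% and 24.4%. Without array 1 of the T3-treated TRα1+m group 18 of the 40 members were higher and 2 lower on T3. On water 7 of 7 macrophage markers were lower in TRα1+m, and their part in these differences was not tested.

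The genotypes differed in scale over the whole table, negative controls included. The deposited array medians of the negative controls were 6.50 to 6.57 in T3-treated TRα1+m and 6.68 to 6.74 in TRα1+m on water. They were 6.14 to 6.18 in T3-treated wild type and 6.20 to 6.28 in wild type on water. Every TRα1+m array thus lay above every wild-type array, and a technical offset and genotype cannot be told apart. Within each genotype every T3 array lay below every water array in this measure. An offset of that kind and T3 cannot be told apart either, although the median probe set on the deposited values differed by only -0.0185 after T3 in TRα1+m and 0.00975 in wild type. On the deposited values the median probe set was 0.357 higher in TRα1+m on water and 0.35 higher on T3, and 17 members were then higher and 5 lower on water, where 54.6% of all probe sets were called (46.5% higher, 8.12% lower). On T3 22 were higher and 1 lower, where 50.9% were called (44.6% higher, 6.3% lower). The shift was 0.481 for probe sets with a mean of 4 to 6 on water and 0.00254 above 14, where 19 members lie. With centring on the gene probe sets most bright members lay lower in TRα1+m. Some did not, such as Acadm, whose lowest difference over the 5 scales was 0.33 on water and 0.51 on T3. Of the calls, 7 of the 18 on water and 6 of the 18 on T3 were made on all 5 scales. Ranges over these 5 scales are given below for some of the members.

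Acot1 was the member that differed most, higher in TRα1+m by 1.80 ± 0.22 on T3, 3.48-fold (adjusted p = 2.5e-06, 1.70 to 2.20 over the 5 scales), and by 2.15 ± 0.22 on water, 4.45-fold (adjusted p = 2e-07, 1.96 to 2.46). Its arrays did not overlap between genotypes in either treatment. In T3-treated wild type its mean of 6.68 lay close to the negative-control median of 6.38. Acot2 did not follow, at 0.00 on T3 and 0.01 on water, each with a direction that changed between scales. Eci1 was higher by 0.95 ± 0.14 on T3 (adjusted p = 2.3e-05, 0.56 to 1.06 over the scales) and by 0.84 ± 0.14 on water (adjusted p = 7.3e-05, 0.42 to 0.92), with no overlap in either treatment. Acadm was higher by 0.96 ± 0.12 on T3 (adjusted p = 3.4e-06, 0.51 to 1.00) and by 0.76 ± 0.12 on water (adjusted p = 4.4e-05, 0.33 to 0.83), where the water difference had an adjusted p of up to 0.071 on another scale.

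The carnitine carrier and the dienoyl reductase were called in both treatments after quantile normalization, and on all 5 scales on T3 alone. Slc25a20 was higher in TRα1+m by 0.99 ± 0.14 on T3 (adjusted p = 1.2e-05, 0.54 to 1.04 over the scales) and by 0.44 ± 0.14 on water (adjusted p = 0.015, 0.00 to 0.50). Decr1 was higher by 0.88 ± 0.11 on T3 (adjusted p = 3.1e-06, 0.46 to 0.95), and its 0.29 on water (adjusted p = 0.041) turned to -0.13 when the gene probe sets were used for centring.

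A few members were lower in TRα1+m on every scale. Oxct1 had 17.39, 17.16, 17.14, 17.08 and 17.22 in T3-treated TRα1+m, against 17.46 to 17.92 in T3-treated wild type (median 17.78). On water it had 17.13, 17.15, 17.12, 17.05 and 17.08 in TRα1+m, against 17.59 to 17.92 in wild type (median 17.69). The genotypes did not overlap, and Oxct1 was lower by 0.56 ± 0.10 on T3 (log2 difference -0.56, adjusted p = 0.00012) and by 0.60 ± 0.10 on water (log2 difference -0.60, adjusted p = 4.2e-05).

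Acacb had 8.74, 9.55, 9.16, 9.44 and 9.32 in T3-treated TRα1+m, against 9.52 to 10.22 in T3-treated wild type (median 9.85). On water it had 9.06, 9.25, 9.44, 9.05 and 9.04 in TRα1+m, against 9.81 to 10.18 in wild type (median 10.08). The genotypes were apart on water, at -0.86 ± 0.14 (adjusted p = 5.9e-05), and overlapped slightly on T3, at -0.58 ± 0.14 (adjusted p = 0.0029), where the call was lost on the deposited values (-0.31, adjusted p = 0.068). Cpt2 at -0.49 (adjusted p = 0.0043), Acot13 at -0.47 (adjusted p = 0.00055) and Ivd at -0.37 (adjusted p = 0.039) were also lower in TRα1+m on water on all 5 scales, and none of the 3 was called on T3.

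The other genotype calls changed with the scale. Cpt1b was called higher in TRα1+m at 0.37 on T3 and 0.34 on water, Hadha at 0.45 on T3 and 0.32 on water and Etfdh at 0.37 on T3 and 0.41 on water, but all 3 turned negative in both treatments when the arrays were centred on the gene probe sets. Ech1 was called at 0.64 on T3 and 0.37 on water, and its direction on water turned to -0.08 with that centring. Crat (0.58), Mlycd (0.42), Acot7 (0.53) and Hibch (0.52) were called on T3 and stayed above 0 on all 5 scales, without being called on each.

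**Figure D3:**
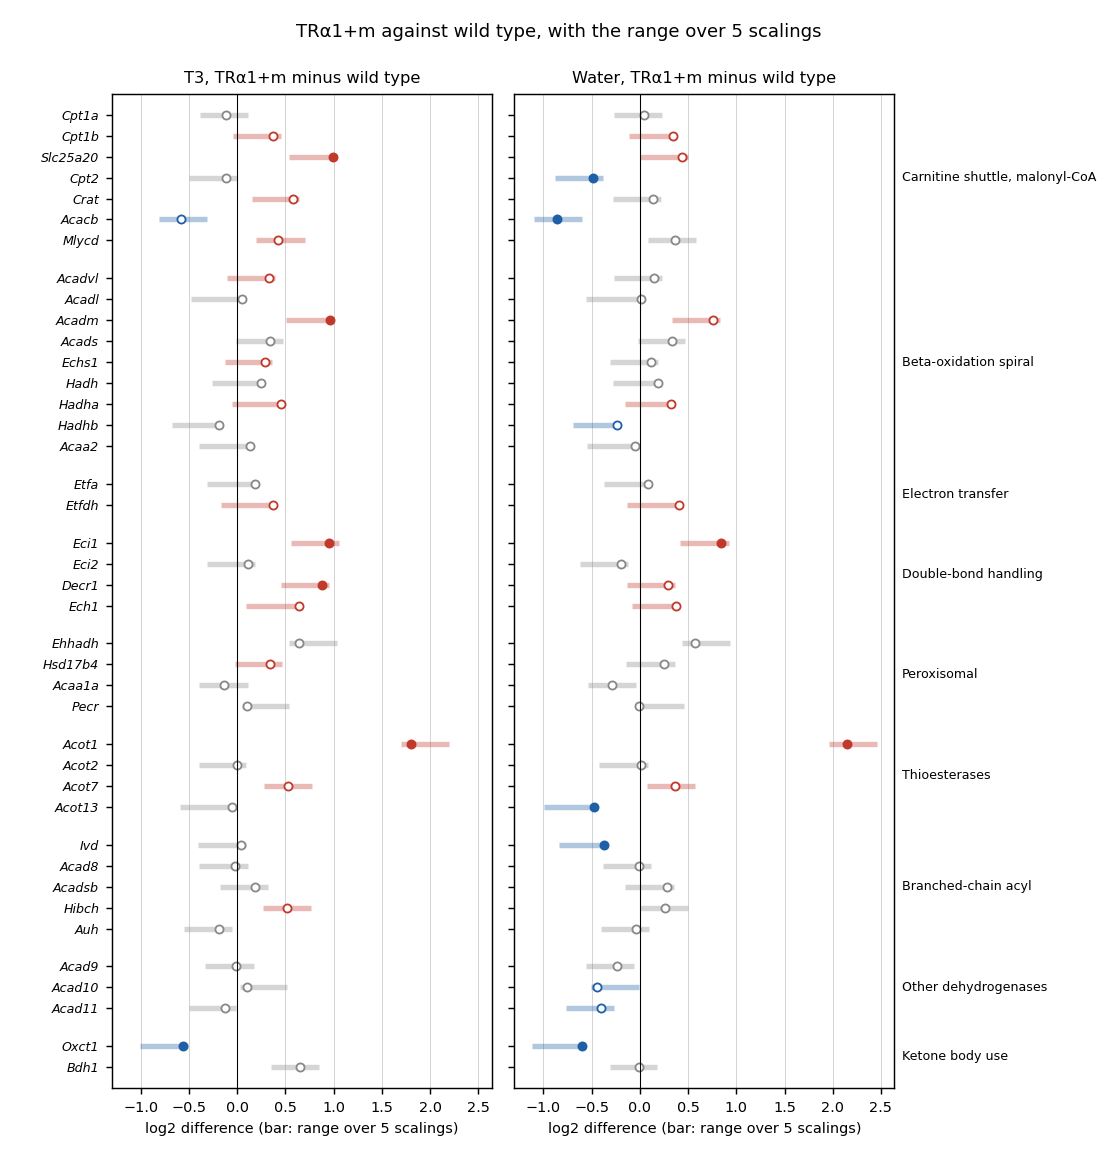
The log2 difference of TRα1+m minus wild type is plotted for each member, on T3 at the left and on water at the right, after joint quantile normalization (points) with the range over 5 scalings (bars). Red is called higher and blue called lower in TRα1+m, grey is not called, and filled points are members called on all 5 scales. Acot1, Eci1 and Oxct1 are filled in both panels, while the bars of Cpt1b, Hadha and Etfdh cross 0.

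Treated TRα1+m hearts were also set against wild type on water, which asks where the hormone brought the mutant hearts relative to untreated normal ones. Of the members 3 were higher and 11 lower, where 40.8% of all tested probe sets were called, 21.2% higher and 19.6% lower. Higher were Acot1 by 0.72 ± 0.22 (adjusted p = 0.012), Hibch by 0.47 ± 0.15 (adjusted p = 0.014, with 0.17 to 0.70 over the 5 scales and an adjusted p of up to 0.45) and Slc25a20 by 0.36 ± 0.14 (adjusted p = 0.04, turning to -0.15 with centring on the gene probe sets). Hibch had 10.41, 9.78, 10.12, 10.25 and 9.93 in T3-treated TRα1+m, against 9.43 to 9.95 in wild type on water (median 9.60), a partial overlap.

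The largest falls in that comparison were those of Acacb, by 0.79 ± 0.14 (adjusted p = 0.00014), Ivd, by 0.77 ± 0.14 (adjusted p = 0.00017), and Acad10, by 0.67 ± 0.16 (adjusted p = 0.0025), each without overlap. On deposited values Acad10 differed by -0.27 and was not called (adjusted p = 0.15). Hadhb (-0.49), Acaa2 (-0.48), Acot2 (-0.48), Oxct1 (-0.51), Acot13 (-0.33), Acad11 (-0.33), Acadsb (-0.31) and Cpt1b (-0.29) were lower too. Of the 14 calls in this comparison 9 were made on all 5 scales, and on deposited values Acad11 (-0.24, adjusted p = 0.088) and Acadsb (-0.24, adjusted p = 0.077) were not called. Acadm and Eci1, higher in TRα1+m on water, lay near the level of wild type on water after T3. Acadm differed by 0.18 (95% interval -0.07 to 0.43) and Eci1 by 0.14 (-0.16 to 0.43), both turning negative with centring on the gene probe sets. Without array 1 of the T3-treated group 7 members were higher and 9 lower, and Acad11 (-0.29, adjusted p = 0.088) and Acadsb (-0.26, adjusted p = 0.098) were not called.

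Whether T3 acted differently in the genotypes was tested as an interaction, the T3 difference in TRα1+m minus that in wild type. With limma 0 of 40 members were called, against 84 of 21092 probe sets (0.398%), and 6 members had an unadjusted p below 0.05. The members' median was 0.15, against 0.00 over all probe sets, and 33 of the 40 were above 0. The 3 members with the smallest p were Decr1 at 0.59 ± 0.16 (adjusted p = 0.11), Acot13 at 0.42 ± 0.14 (adjusted p = 0.26) and Slc25a20 at 0.55 ± 0.20 (adjusted p = 0.35). Decr1 was called with trended and robust variances (adjusted p = 0.017), as was Acot13 (adjusted p = 0.042), and without array 1 of the T3-treated TRα1+m group (0.67, adjusted p = 0.041). The 8 members called in wild type and not in TRα1+m are thus not shown to differ in response between the genotypes. For Cpt1b, called in both, the interaction was 0.04 (95% interval -0.23 to 0.30), and for Acot1 it was -0.35 ± 0.31 (SE). Acot1 lay close to the median of the negative controls in T3-treated wild type.

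Animals of a group differed more in some members than in others. Arrays 1 and 4 of TRα1+m on water were the 2 highest of their group in Cpt1a (11.39 and 11.39, against 9.88, 10.40 and 10.20 in the others), and likewise in Ehhadh, Acot1, Acot2 and Mlycd. Array 2 of TRα1+m on water had the lowest value of its group in 19 of the 40 members and array 5 in 14. Over all tested probe sets they were lowest in 21.3% and 22.7%. Array 3 of wild type on water was the highest of its group in both Cpt1a (11.47) and Ehhadh (8.91). Over the members, the SD was smaller with T3 than on water for 22 of 40 in TRα1+m and 26 of 40 in wild type, against 52.7% and 56.4% of all tested probe sets. The map of array deviations shows these arrays beside the low array 1 of T3-treated TRα1+m.

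**Figure D4:**
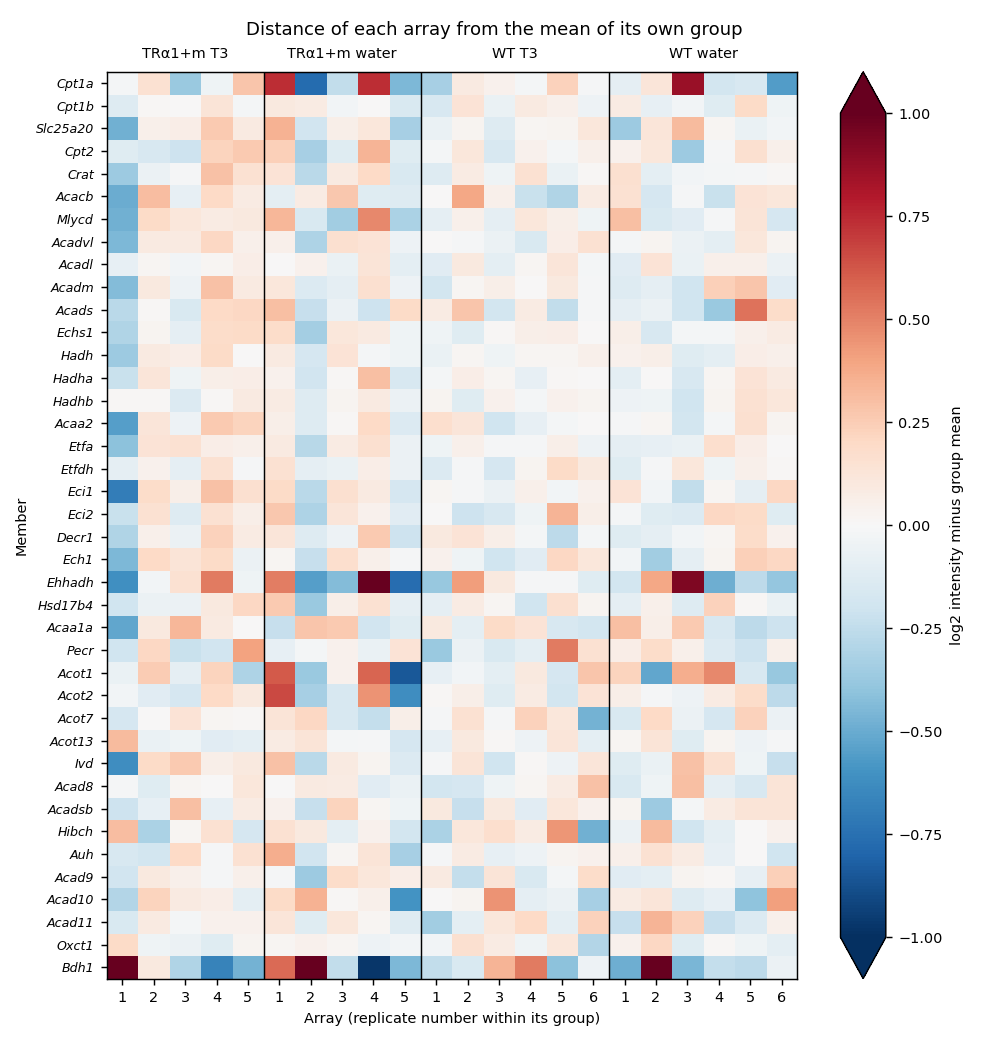
Each cell shows how far the log2 intensity of a member on an array lies from the mean of its group, red above and blue below, with the colour scale ending at -1 and 1. Columns are arrays, by group from T3-treated TRα1+m to wild type on water, and rows are the 40 members. Array 1 of T3-treated TRα1+m is blue in most rows. In the water groups Cpt1a, Ehhadh, Acot1 and Bdh1 vary most, and Acot2 varies widely in TRα1+m on water only (SD 0.54, against 0.15 in wild type on water).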

How the data were processed

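Whole-heart RNA was hybridized to 22 Clariom S Mouse arrays, each taken as a different mouse, and no scan dates or batches were given in the labels. The authors deposited log2 intensities per probe set. Their processing notes to GEO name RMA, a method of background correction, between-array normalization and probe summary, and version 4.0.1 of the Transcriptome Analysis Console. The genome build of the array annotation and whether all arrays were normalized together are not given in the sources used here. Samples were grouped by their titles. All deposited columns were used. Symbols came from the platform table, updated through gene identifiers, and each of the 40 measured members had 1 probe set. The number of arrays limits the precision, and p-values measure the spread between these animals if each array is a different mouse.

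The deposited values were quantile-normalized over the 22 arrays. Probe sets with a deposited mean log2 above 4 (21092 of 22206) were fitted by lmFit and eBayes of limma (version 3.58.1, under R 4.3.3) as 4 group means, and tests used both directions with Benjamini-Hochberg adjustment within each comparison. The fit was tested on simulated data. Intervals are 95% intervals of the fit. A direction count or overlap refers to arrays. The members, the roles and the other lists were chosen with earlier results of these data known. Named were, by role, the members called and at least 1 not called, with array values for the largest rises and falls, at most 3 other pathway genes, and for the interaction the 3 members with the smallest p. Array values of further members were added after their values were seen. Alternatives were 4 other scalings, 2 other filters, other variance models, array weights, fits to the compared groups alone, a covariate, a replicate block and leaving out arrays. Figures were drawn with matplotlib 3.10.9.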

Additional observations from a re-analysis of the deposited data

Results flagged for a closer look

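A sample far from the others of its group, by the gap to its nearest neighbour as a share of the group's range, was found in 11 of 160 member and group combinations (6.88%), and chance gives about 1 in 20. Array 1 of T3-treated TRα1+m was such a sample in 7 members. It was low in Slc25a20 (14.36, the next array being 14.89), Mlycd (9.14, next 9.70), Acadvl (15.75, next 16.25), Etfa (15.99, next 16.46), Eci1 (11.69, next 12.45) and Ivd (13.01, next 13.69), and high in Acot13 (16.95, next 16.60). Without it, 10 members were called for T3 in TRα1+m in place of 12. The other arrays of this kind were wild type on water 3 for Cpt2 (12.09, next 12.44), wild type on T3 6 for Acot7 (9.09, next 9.54), and wild type on water 2 for Acadsb (12.40, next 12.74) and for Bdh1 (11.99, next 10.43).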

How the results depend on the processing

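Counts of members called moved most with the negative-control level of each array as a covariate, to 6 for T3 in wild type and 0 for T3 in TRα1+m, for both genotype comparisons and for TRα1+m on T3 against untreated wild type; 98.8% of its variance lay between groups. With the covariate 791 of the 21092 probe sets were called for T3 in wild type and 243 for T3 in TRα1+m. It called 0 of all probe sets in each genotype comparison and 3 in the last comparison. For that last comparison 27 members were called with centring on gene probe sets and 22 with centring on negative controls, against 14. Of all probe sets 9475 and 8920 were called there, against 8612. Trended and robust variances called 2 members for the interaction, and the unmoderated model 0, beside 163 and 95 of all probe sets. Leaving out 1 of the 22 arrays gave 10 to 15 calls for T3 in TRα1+m, 17 to 20 for T3 in wild type, 14 to 20 for genotype on T3, 14 to 19 on water, 11 to 16 between treated TRα1+m and untreated wild type, and 0 to 1 for the interaction. With a replicate block 12, 18, 17, 16, 12 and 0 were called in that order; same-numbered arrays correlated between -0.255 and 0.293, over 0.1 in 9 of 31 pairs, so the numbers were not taken as pairing.

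Directions of members called after joint quantile normalization or under the setting named turned as follows, and the cause was not tested; members called under neither also changed sign and are not listed. With centring on gene probe sets, genotype on T3: Cpt1b -0.04, Acadvl -0.11, Acadl -0.48, Echs1 -0.13, Hadha -0.05, Acaa2 -0.40, Etfa -0.31, Etfdh -0.17, Hsd17b4 -0.02 and Ivd -0.41. On water they were Cpt1b -0.11, Acadl -0.56, Echs1 -0.31, Hadh -0.28, Hadha -0.15, Etfa -0.37, Etfdh -0.13, Decr1 -0.13, Ech1 -0.08 and Acot2 -0.42. In treated TRα1+m against untreated wild type they were Slc25a20 -0.15, Etfdh -0.39 and Acad8 -0.31. With centring on negative controls they were Acadl -0.36, Echs1 -0.02 and Etfdh -0.05 on T3, and Cpt1b -0.07, Acadl -0.52, Hadha -0.11, Etfa -0.33, Etfdh -0.09, Decr1 -0.10 and Ech1 -0.04 on water. On deposited values Pecr was 0.46 on water and 0.37 between treated TRα1+m and untreated wild type. With the covariate they were Cpt2 -0.04 for T3 in TRα1+m, Mlycd -0.07 and Oxct1 0.04 for genotype on T3, Cpt1b -0.04, Cpt2 1.25, Hadhb 0.44, Ech1 -0.10, Acad10 0.28, Acad11 0.74 and Oxct1 0.12 on water, and Acot1 -0.18 and Acad11 0.40 for treated TRα1+m against untreated wild type. A median over probe sets gave no other value, each member having 1.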
